A study of Mus musculus with 6 samples.

Results

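The genes described here are 43 genes of the lysosome, chosen by symbol from the 15845 genes of the deposited count table. They comprise 21 hydrolases with the proteins that act beside them, 13 genes of the proton pump and 9 genes for membrane proteins and other lysosomal proteins. All 43 were found in the table and all passed the filter on low counts, which left 13149 genes for testing. RNA was sequenced from LSK cells, the lineage-negative, Sca1+ and c-Kit+ fraction of mouse bone marrow that holds blood stem cells and early multipotent progenitors. All 6 libraries came from mice of the C57BL/6 strain with the genotype Mx1Cre; Jak2VF/VF, so both groups carried the V617F form of the Jak2 kinase, the lesion of most myeloproliferative neoplasms, on both alleles. One group received TP-3654, a Pim1 inhibitor by the title of the series, at 150 mg/kg/day for 6 weeks (3 libraries). The other received vehicle, which the labels give as PBS (3 libraries). The series' text calls the libraries biological replicates. Mx1Cre is driven by an interferon-responsive promoter and is active in many cell types besides blood cells, and neither the age of the mice nor a group without the Jak2 allele is part of the labels.

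Lysosomes break down proteins, glycans and lipids that reach them by endocytosis or autophagy. Their hydrolases work in acid, which is made by the vacuolar ATPase, a rotary proton pump with a V0 sector in the membrane that carries protons and a V1 sector on the cytosolic side that splits ATP. Many genes of enzymes and pump subunits are known targets of TFEB and its relatives, transcription factors that bind the CLEAR motif, an extended E-box, and that are held in the cytoplasm by mTORC1 when nutrients are plentiful. In blood stem cells, lysosomes have been described as a regulator of quiescence, and in granulocyte progenitors some lysosomal proteases are also packed into granules.

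Of the 43 genes, 40 had a log2 fold change below 0 for TP-3654 minus vehicle, against 47.9% of all genes tested, and the median was -0.21 (1.16-fold lower) against 0.01 over all genes tested. The 43 genes were chosen with earlier results of these data known, so their shares beside all genes are a description, not a test. Among those whose groups did not overlap, cathepsin Z (Ctsz), alpha-galactosidase A (Gla), the hexosaminidase alpha chain (Hexa), the cholesterol carrier Npc2, the membrane glycoprotein Lamp1 and the pump subunit Atp6v0d1 stood lowest, between 1.41-fold and 1.81-fold below vehicle. None of the 43 passed edgeR's quasi-likelihood test at an adjusted p under 0.05, and 0% of all genes tested passed it. At an unadjusted p under 0.05 by edgeR, 12 of the 43 were lower (27.9%, against 6.84% of all genes tested) and 0 were higher (against 10.2%). DESeq2 called 6 of them, all lower. Of the genes for which DESeq2 gave an adjusted p it called 4.92%, and 1.92% as lower; limma-voom called 0 genes. In 14 of the 43 every TP-3654 library lay below every vehicle library (32.6%, against 11.6% of all genes tested), and in 0 every one lay above (against 14.3%). In bulk RNA, fewer cells of a type and less RNA per cell cannot be told apart.

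**Figure D1:**
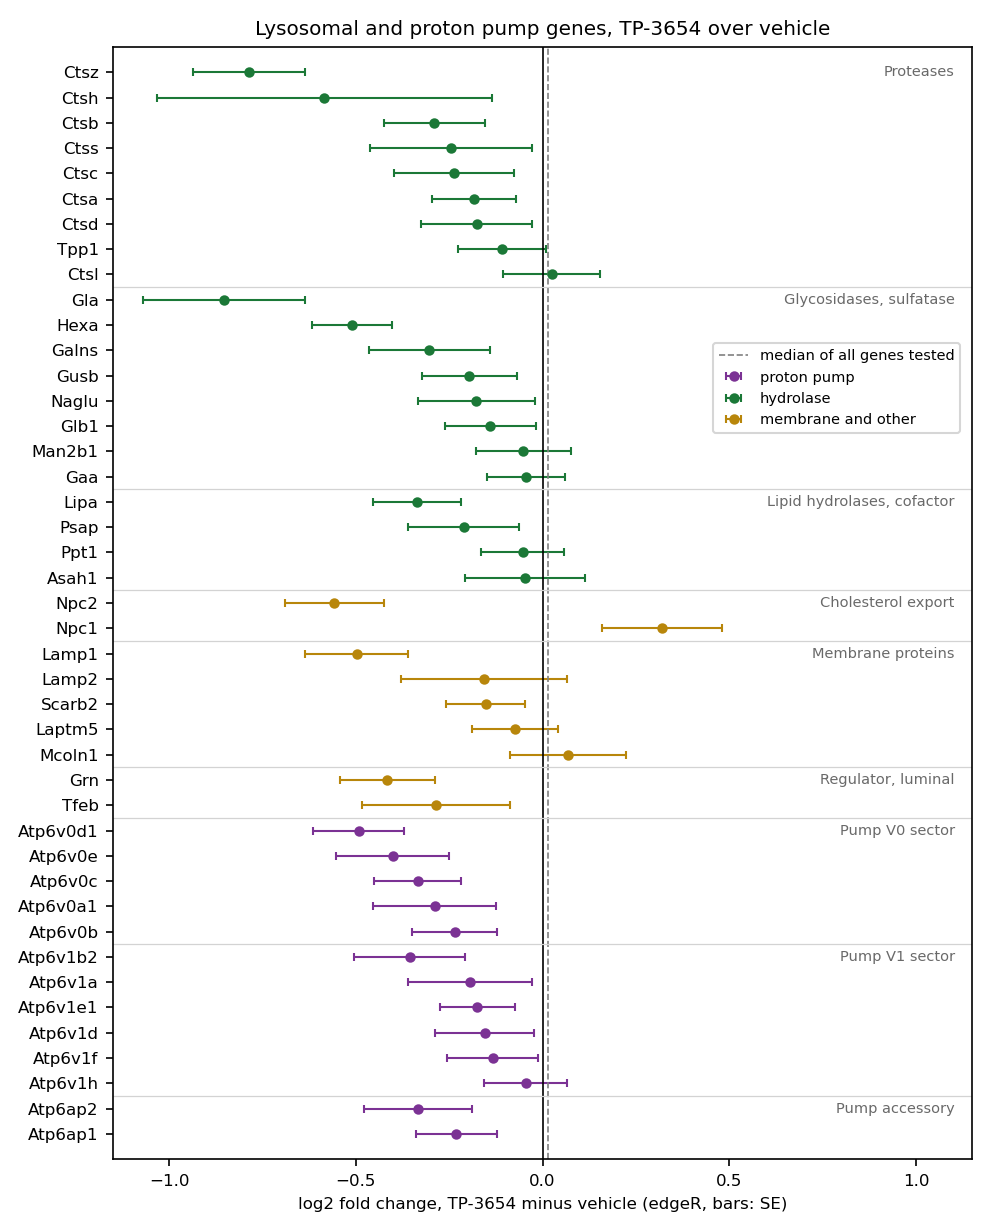
Log2 fold change of each of the 43 genes, TP-3654 minus vehicle, from edgeR on 3 libraries a group (points, with bars for the standard error), grouped by role. All 13 pump genes lie left of 0, and among the other genes Npc1, Mcoln1 and Ctsl lie right of it.

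Library totals ran from 20582057 to 25315596 counts, and a member had between 155 and 27267 counts in a library. Levels are given as CPM, counts scaled to library size by TMM, where 3 counts correspond to 0.116 to 0.153 CPM. The sort marker Kit stood at 436 to 581 CPM in TP-3654 libraries and at 365 to 377 CPM in vehicle libraries. The other sort marker, Ly6a (Sca1), stood at 60.5 to 68.3 CPM in TP-3654 libraries and at 39.96 to 69.2 CPM in vehicle libraries. The mature T cell marker Cd3e (at most 0.039 CPM) and the neutrophil marker Ly6g (at most 0.158 CPM) were at or near 0. Other neutrophil markers stood higher in single libraries. S100a9, named after its values were seen, had 40.2, 0.135 and 0.504 CPM in vehicle replicates 1 to 3. In TP-3654 libraries S100a9 stood at 0.648 to 7.47 CPM. The lymphocyte markers as a list summed to 34.1 to 36.3 CPM in TP-3654 libraries and 31.9 to 48.9 CPM in vehicle libraries. The highest of them was Cd79b, with a mean of 31.6 CPM. Other marker lists differed between groups or libraries. The erythroid markers summed to 2129, 1315 and 1033 CPM in TP-3654 replicates 1 to 3. In vehicle replicates 1 to 3 they summed to 2111, 1377 and 1097 CPM. The 15 stem cell markers summed to 661 to 753 CPM in TP-3654 libraries and 394 to 482 CPM in vehicle libraries. At an unadjusted p under 0.05 by edgeR, 8 of the 15 were higher (against 10.2% of all genes tested) and 0 were lower (against 6.84%). The 17 granulocyte-monocyte progenitor markers summed to 5026 to 11280 CPM in TP-3654 libraries and 15170 to 18370 CPM in vehicle libraries. Of these 17, 15 were lower at an unadjusted p under 0.05 by edgeR (88.2%, against 6.84% of all genes tested). The 20 markers of mature neutrophils and monocytes, of which 16 averaged at least 1 CPM, summed to 489 to 741 CPM in TP-3654 libraries. They summed to 1469, 734 and 680 CPM in vehicle replicates 1 to 3, with S100a8 at 39.0 CPM in vehicle replicate 1. Of the 16 tested, 14 had a log2 fold change below 0, and the median was -1.19. At an unadjusted p under 0.05 by edgeR, 5 of the 16 were lower (31.2%, against 6.84% of all genes tested) and 0 were higher (against 10.2%). The part of these cells in the lysosomal values was not tested.

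Promoters are printed for the 6 members that DESeq2 called, to show which of them hold the E-box core CACGTG; this set was chosen after their values were seen. RefSeq promoter windows of 300 bases (250 before to 50 after a gene's start, GRCm38.p6) were found for 36 of the 43 genes. The core CACGTG, which reads the same on both strands, was present in 13 of these 36 genes (36.1%), against 11.6% of the tested genes with a window and 8.09% of all genes with one. The longer palindrome TCACGTGA, which contains that core, was present in 7 of 36 genes (19.4%), against 2.18% of the tested genes. The same palindrome with one more G before it and one more C after it was found in 0 of 36 genes and in 0.802% of the tested genes. Of the 21 copies of the core, 15 began within 100 bases of a start. Any copy of the core or the longer palindrome is in capitals, each sequence reads 5′ to 3′ on the strand of its gene, and a match describes letters, not a bound site.
Lamp1, chr8:13158911-13159210, plus strand: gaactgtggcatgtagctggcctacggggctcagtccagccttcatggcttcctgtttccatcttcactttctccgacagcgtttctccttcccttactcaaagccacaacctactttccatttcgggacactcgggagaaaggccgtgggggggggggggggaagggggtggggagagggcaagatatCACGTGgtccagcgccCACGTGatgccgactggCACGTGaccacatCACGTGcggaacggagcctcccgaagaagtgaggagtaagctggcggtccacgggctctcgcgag
Gla, chrX:134600956-134601255, minus strand: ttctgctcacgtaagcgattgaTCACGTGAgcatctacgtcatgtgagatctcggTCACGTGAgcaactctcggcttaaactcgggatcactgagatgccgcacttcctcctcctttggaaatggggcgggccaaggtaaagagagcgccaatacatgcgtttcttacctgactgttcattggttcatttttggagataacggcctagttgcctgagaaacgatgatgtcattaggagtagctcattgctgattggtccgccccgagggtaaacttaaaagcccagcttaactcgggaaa
Atp6v0d1, chr8:105566015-105566314, minus strand: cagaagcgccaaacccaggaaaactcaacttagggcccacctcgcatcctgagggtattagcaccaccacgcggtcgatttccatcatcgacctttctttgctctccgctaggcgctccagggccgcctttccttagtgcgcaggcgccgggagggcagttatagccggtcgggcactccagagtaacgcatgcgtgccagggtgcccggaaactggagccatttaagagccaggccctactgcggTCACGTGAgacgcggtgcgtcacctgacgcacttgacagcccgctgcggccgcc
Hexa, chr9:59539290-59539589, plus strand: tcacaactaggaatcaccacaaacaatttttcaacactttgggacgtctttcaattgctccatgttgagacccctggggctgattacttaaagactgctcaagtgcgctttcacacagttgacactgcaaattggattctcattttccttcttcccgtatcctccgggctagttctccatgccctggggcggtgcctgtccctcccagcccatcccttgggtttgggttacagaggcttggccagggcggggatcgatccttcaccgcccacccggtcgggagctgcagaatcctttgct
Npc2, chr12:84773063-84773362, minus strand: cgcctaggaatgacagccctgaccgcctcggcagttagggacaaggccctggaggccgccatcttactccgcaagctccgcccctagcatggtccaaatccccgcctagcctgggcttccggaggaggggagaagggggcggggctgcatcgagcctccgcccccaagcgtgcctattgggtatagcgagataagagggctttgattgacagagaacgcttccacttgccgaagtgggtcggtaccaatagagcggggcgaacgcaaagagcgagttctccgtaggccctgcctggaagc
Ctsz, chr2:174438990-174439289, minus strand: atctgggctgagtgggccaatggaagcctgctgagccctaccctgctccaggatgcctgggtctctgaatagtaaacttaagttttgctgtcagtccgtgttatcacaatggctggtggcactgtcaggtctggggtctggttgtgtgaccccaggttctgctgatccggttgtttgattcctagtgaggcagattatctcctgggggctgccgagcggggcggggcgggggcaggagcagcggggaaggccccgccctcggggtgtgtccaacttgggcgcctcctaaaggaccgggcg
Lamp1 had 4 copies of the core, beginning 61, 45, 28 and 15 bases before the start, the most of any member. The palindrome of Atp6v0d1 spans the start itself. Both copies in Gla lie farther out, with cores beginning 227 and 194 bases before the start. Hexa, Npc2 and Ctsz had no copy in this window. Mcoln1, Gaa and Ctsl carry the core too, with log2 fold changes of 0.07, -0.04 and 0.02. The 13 members with the core had a median log2 fold change of -0.18, with 4 of 13 at an unadjusted p under 0.05 by edgeR. The 23 members without it had a median of -0.23, with 7 of 23 at that p. All of these genes were lower, against 6.84% of all genes tested that were lower at that p. The difference between members with and without the core was not tested.

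The V0 sector of the pump, which spans the membrane, had 5 genes in the list, and all 5 were lower in TP-3654 libraries on average (median log2 fold change -0.33). Atp6v0d1 encodes subunit d, the collar that joins the membrane ring to the central stalk, and lies on chromosome 8 (105524461 to 105566064, GRCm38). It had 84.2, 87.4 and 68.6 CPM in TP-3654 replicates 1 to 3, against 115, 105 and 118 CPM in vehicle replicates 1 to 3. The groups lay apart, with TP-3654 replicate 3 the lowest library. The log2 fold change was -0.49 (SE 0.12, edgeR adjusted p = 0.113; DESeq2 adjusted p = 0.0163). Atp6v0c, the proteolipid that makes up most of the rotating ring, had 133, 148 and 144 CPM in TP-3654 libraries and 196, 183 and 158 CPM in vehicle libraries (log2 fold change -0.33, SE 0.12, edgeR adjusted p = 0.209). Its groups did not overlap, and 11.9% of the 31-base words of its transcripts also occur at other loci, most of them in the pseudogene Atp6v0c-ps2. Atp6v0e, a small hydrophobic subunit, had 81.2, 82.4 and 58.1 CPM in TP-3654 libraries and 107, 98.5 and 88.0 CPM in vehicle libraries (log2 fold change -0.40, SE 0.15, edgeR adjusted p = 0.236). Atp6v0b, the second type of proteolipid in the ring, had 80.1, 80.7 and 85.4 CPM with TP-3654 and 108, 86.7 and 94.8 CPM with vehicle, a narrow gap (log2 fold change -0.24, SE 0.11). Atp6v0a1, one of the alternative a subunits through which protons pass, overlapped, with 27.6 to 42.2 CPM in TP-3654 libraries and 38.7 to 44.1 CPM in vehicle libraries.

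The V1 sector, which splits ATP, had 6 genes, also all lower on average, with a median log2 fold change of -0.17. In 1 of the 6 all TP-3654 libraries lay below all vehicle libraries (16.7%, against 11.6% of all genes tested), and 5 overlapped between groups. Atp6v1b2 encodes the B subunit, which forms the catalytic head together with subunit A. It had 118, 127 and 106 CPM in TP-3654 libraries and 180, 148 and 123 CPM in vehicle libraries (log2 fold change -0.36, SE 0.15, edgeR adjusted p = 0.272). The overlap rests on TP-3654 replicate 2 and vehicle replicate 3. Atp6v1a, the A subunit, was less apart, at 67.9 ± 1.74 CPM in TP-3654 libraries and 77.6 ± 18.3 CPM in vehicle libraries (SD, n = 3 each). Atp6v1e1, part of the outer stalk, was the gene of this sector whose groups lay apart, at 73.4, 74.3 and 72.5 CPM with TP-3654 against 85.0, 78.3 and 85.1 CPM with vehicle (log2 fold change -0.17, SE 0.10). Subunits D (Atp6v1d), F (Atp6v1f) and H (Atp6v1h) had log2 fold changes of -0.16, -0.13 and -0.05, each with an SE of 0.11 to 0.13. The V0 and V1 medians were not tested against each other.

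Accessory proteins of the pump had values between those of the sectors. Atp6ap1 encodes Ac45, which guides assembly of the pump, and had 141, 154 and 135 CPM in TP-3654 libraries against 175, 176 and 155 CPM in vehicle libraries (log2 fold change -0.23, SE 0.11). Its groups met closely at TP-3654 replicate 2 and vehicle replicate 3 without crossing. Atp6ap2, the prorenin receptor, which is also needed for pump assembly, had 55.3, 72.0 and 68.3 CPM with TP-3654 and 89.0, 88.2 and 69.4 CPM with vehicle (log2 fold change -0.33, SE 0.14, edgeR adjusted p = 0.281).

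**Figure D2:**
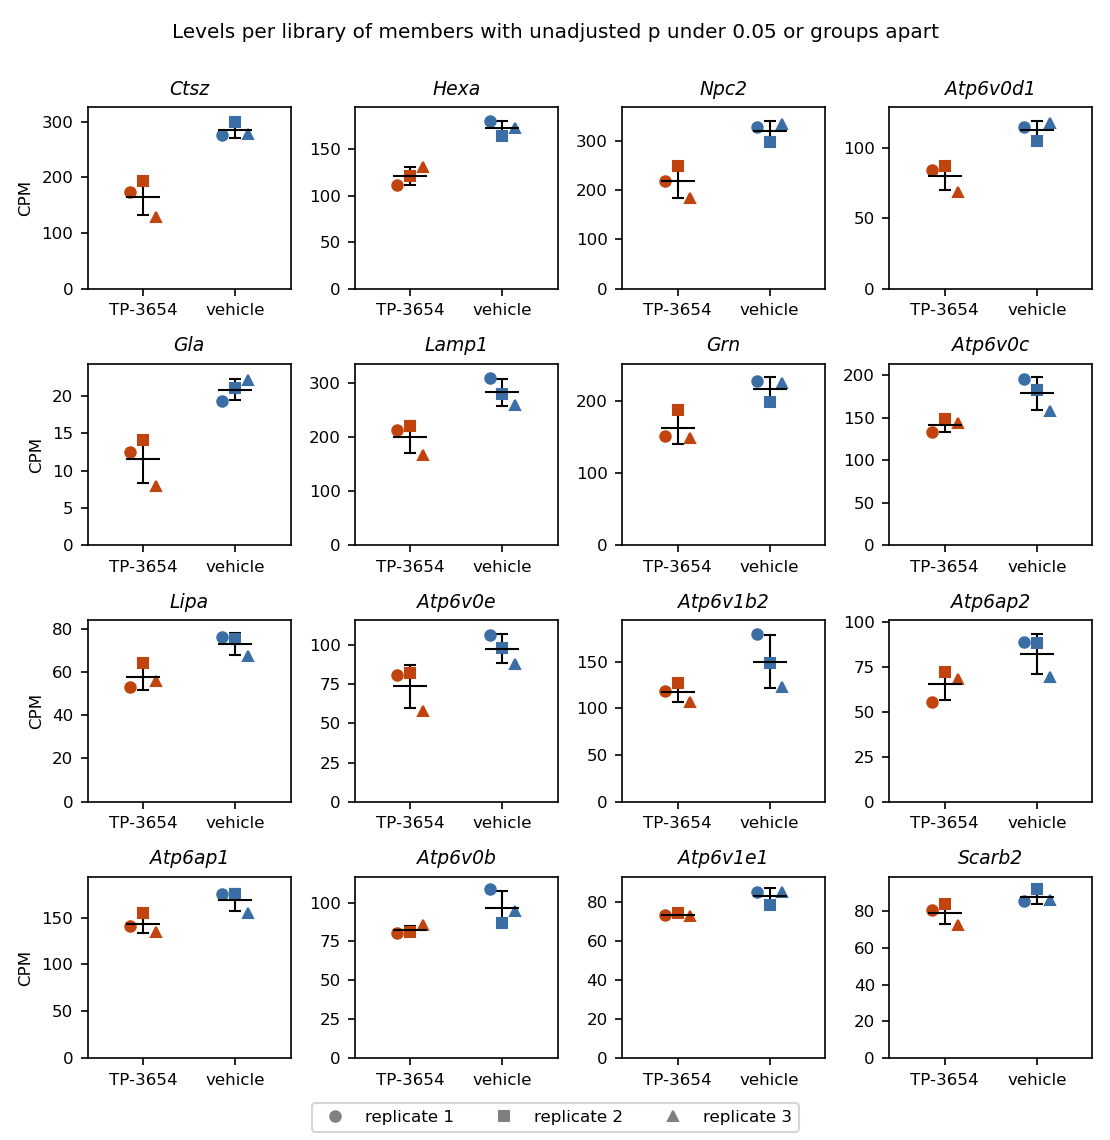
TMM-scaled CPM in each library for the 16 members with an unadjusted edgeR p under 0.05 or with groups that do not overlap, ordered by p. Points are libraries, with a symbol per replicate number, which was not taken as a pairing of samples, and bars show the mean ± SD of 3 libraries. Atp6v1b2 and Atp6ap2 are the panels in which the groups overlap.

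Among the 9 proteases, 8 had a log2 fold change below 0, and the median was -0.24. At an unadjusted p under 0.05 by edgeR, 1 of the 9 was lower (11.1%, against 6.84% of all genes tested). Ctsz, on chromosome 2 (174427494 to 174439039, GRCm38), encodes cathepsin Z, a cysteine protease that trims single residues from the carboxyl end. It had 173, 193 and 129 CPM in TP-3654 replicates 1 to 3, against 277, 299 and 277 CPM in vehicle replicates 1 to 3. Even the highest TP-3654 library was well below the lowest vehicle library. The log2 fold change was -0.79 (1.72-fold lower, SE 0.15), with the smallest edgeR adjusted p of any member, 0.0792, and a DESeq2 adjusted p of 0.000214. The other cysteine proteases overlapped between groups. Ctsb, the most abundant of them in CPM per kilobase of transcript, stood at 40.3 ± 4.74 in TP-3654 libraries and 49.3 ± 6.28 in vehicle libraries on that scale (SD, n = 3 each). Ctsc, which activates the serine proteases of granules, had 66.7 to 93.9 CPM in TP-3654 libraries and 80.9 to 112 CPM in vehicle libraries. Ctsl was close between groups, at 26.2 ± 2.08 CPM in TP-3654 libraries and 25.7 ± 0.831 CPM in vehicle libraries (SD, n = 3 each), with a log2 fold change of 0.02 (SE 0.13).

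Ctsh and Ctss, cysteine proteases abundant in monocytes and other antigen-presenting cells, turned on vehicle replicate 1. Ctsh had 11.3, 13.0 and 15.8 CPM in TP-3654 libraries and 35.3, 13.9 and 10.95 CPM in vehicle libraries. Ctss had 32.7, 36.5 and 39.0 CPM in TP-3654 libraries and 57.5, 40.3 and 30.3 CPM in vehicle libraries. In each, vehicle replicate 1 stood above all other libraries, and without it the log2 fold change went above 0, to 0.11 for Ctsh and 0.03 for Ctss. That library is also the one with the highest sum of mature neutrophil and monocyte markers given above. The macrophage markers C1qa, C1qb and C1qc, named after their values were seen, stood at 3.38 to 8.23 CPM in TP-3654 libraries, at 8.79, 14.3 and 11.8 CPM in vehicle replicate 1 and at 0.766 to 1.04 CPM in the other vehicle libraries. In the same list H2-Ab1, H2-Aa and Cd74, also named after their values were seen, went the other way. They had 73.5, 45.0 and 57.3 CPM in vehicle replicate 1 and 79.4 to 154 CPM in the other vehicle libraries. Vehicle replicate 1 was the highest library for 11 of the 18 tested markers of that list, against 16.6% of all genes tested. The whole list of 20 macrophage and dendritic cell markers, 19 of them in the table, summed to 368 to 553 CPM in TP-3654 libraries. In vehicle replicates 1 to 3 it summed to 483, 481 and 519 CPM. The part of these cells in Ctsh and Ctss was not tested. The carboxypeptidase gene Ctsa (log2 fold change -0.18, SE 0.11), the tripeptidase gene Tpp1 (-0.11, SE 0.12) and the aspartic protease gene Ctsd (-0.18, SE 0.15) overlapped between groups. Ctsd was the protease with the highest level per kilobase, at 219 ± 34.6 CPM per kilobase in TP-3654 libraries and 247 ± 27.8 CPM per kilobase in vehicle libraries (SD, n = 3 each). Its count is uncertain, since 33.2% of its 31-base words occur at another locus, mainly the same-strand gene model Gm49369. The same share is 28.2% for Ctsl, 14.6% for Ctsa and 13.0% for Ctsb, whose values are uncertain for that reason, and 0% for Ctsz.

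The 8 genes for enzymes that cut glycans all had log2 fold changes below 0, with a median of -0.19. Of these 8, 2 were lower at an unadjusted p under 0.05 by edgeR, against 6.84% of all genes tested. Gla, on the X chromosome (134588169 to 134601005, GRCm38), encodes alpha-galactosidase A, the enzyme lacking in Fabry disease. It had 12.5, 14.1 and 7.92 CPM in TP-3654 libraries and 19.3, 21.1 and 22.1 CPM in vehicle libraries. This was the most negative log2 fold change of the 43 genes, -0.85 (1.81-fold lower, SE 0.22, edgeR adjusted p = 0.119; DESeq2 adjusted p = 0.00856), and the level was the lowest per kilobase among the glycan enzymes. Hexa, on chromosome 9 (59539540 to 59565109, GRCm38), encodes the alpha chain of hexosaminidase A, the enzyme lacking in Tay-Sachs disease. It had 111, 121 and 131 CPM in TP-3654 libraries and 180, 164 and 173 CPM in vehicle libraries (log2 fold change -0.51, SE 0.11, edgeR adjusted p = 0.0831; DESeq2 adjusted p = 0.00399). For Hexa the gap between groups exceeded the range within each, and TP-3654 replicate 1, not replicate 3, was lowest. Of its 31-base words 11.4% occur at other loci, mainly the antisense gene Tmem202. Galns, a sulfatase that acts on keratan sulfate, overlapped by a small margin, with 33.8, 38.3 and 25.4 CPM in TP-3654 libraries and 41.1, 41.1 and 38.1 CPM in vehicle libraries (log2 fold change -0.30, SE 0.16). Gusb (-0.20), Naglu (-0.18), Glb1 (-0.14), Man2b1 (-0.05) and Gaa (-0.04) had overlapping groups and SEs of 0.10 to 0.16. Per kilobase, Gusb, the beta-glucuronidase, was the highest of the 8, at 90.0 ± 6.30 CPM per kilobase in TP-3654 libraries and 103 ± 13.7 CPM per kilobase in vehicle libraries (SD, n = 3 each).

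Lipid breakdown was covered by 4 genes, all with log2 fold changes below 0 and a median of -0.13. Lipa, the acid lipase that frees cholesterol from its esters, had 53.1, 64.3 and 55.6 CPM in TP-3654 libraries and 76.0, 75.5 and 67.2 CPM in vehicle libraries (log2 fold change -0.34, SE 0.12, edgeR adjusted p = 0.211). Its groups did not overlap, although TP-3654 replicate 2 came close to vehicle replicate 3. Psap, the precursor of the saposins that present lipids to hydrolases, had 477, 507 and 519 CPM with TP-3654 and 710, 513 and 516 CPM with vehicle. Vehicle replicate 1 apart, these 5 libraries were nearly level, and Psap held 17.2% of the summed hydrolase level in vehicle libraries. Asah1, the acid ceramidase, and Ppt1, which removes palmitate from proteins, each had a log2 fold change of -0.05 (SE 0.16 and 0.11) and overlapping groups.

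Npc1 and Npc2, which act in sequence to move cholesterol out of the lysosome, differed in sign. Npc2, the soluble carrier, lies on chromosome 12 (84754559 to 84773112, GRCm38) and had 218, 249 and 184 CPM in TP-3654 libraries and 328, 298 and 333 CPM in vehicle libraries. All TP-3654 libraries lay below all vehicle libraries (log2 fold change -0.56, SE 0.13, edgeR adjusted p = 0.105; DESeq2 adjusted p = 0.00594). Npc1, the membrane protein that takes the cholesterol over, had 38.6, 49.4 and 52.1 CPM in TP-3654 libraries and 42.5, 38.2 and 31.6 CPM in vehicle libraries. Its groups overlapped (log2 fold change 0.32, SE 0.16, edgeR adjusted p = 0.336), and the difference between the 2 genes was not tested.

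Of the 5 membrane proteins, Lamp1 had the largest difference. Lamp1, a heavily glycosylated protein that lines the inner face of the membrane, lies on chromosome 8 (13159161 to 13175338, GRCm38). It had 214, 221 and 167 CPM in TP-3654 libraries and 310, 280 and 259 CPM in vehicle libraries (log2 fold change -0.50, SE 0.14, edgeR adjusted p = 0.140; DESeq2 adjusted p = 0.0213). The groups lay apart, and 7.3% of its 31-base words occur at other loci, mostly the overlapping antisense gene Grtp1. Its relative Lamp2, which also serves chaperone-mediated autophagy, varied within both groups, at 105, 161 and 116 CPM with TP-3654 and 170, 154 and 103 CPM with vehicle. Scarb2, the receptor that carries glucocerebrosidase to the lysosome, had 80.4, 83.8 and 72.4 CPM in TP-3654 libraries and 85.4, 91.9 and 85.6 CPM in vehicle libraries, apart by a small margin (log2 fold change -0.15, SE 0.11). Laptm5, a lysosomal protein of blood cells, had the highest level per kilobase of all 43 genes, at 382 ± 24.6 CPM per kilobase in TP-3654 libraries and 403 ± 4.67 CPM per kilobase in vehicle libraries (SD, n = 3 each), with a log2 fold change of -0.07 (SE 0.11). Mcoln1, the calcium channel of the lysosome, overlapped at 46.2 ± 5.53 CPM in TP-3654 libraries and 44.0 ± 7.05 CPM in vehicle libraries (SD, n = 3 each).

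Grn encodes progranulin, a luminal protein that is split into granulins. It had 151, 187 and 149 CPM in TP-3654 libraries and 227, 198 and 224 CPM in vehicle libraries. The groups were separate, by the smallest distance between TP-3654 replicate 2 and vehicle replicate 2 (log2 fold change -0.42, SE 0.13, edgeR adjusted p = 0.171). Tfeb itself, the transcription factor named above, had 16.2, 17.1 and 13.4 CPM in TP-3654 libraries and 19.0, 14.7 and 23.2 CPM in vehicle libraries, with overlap (log2 fold change -0.29, SE 0.20, edgeR adjusted p = 0.468).

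**Figure D3:**
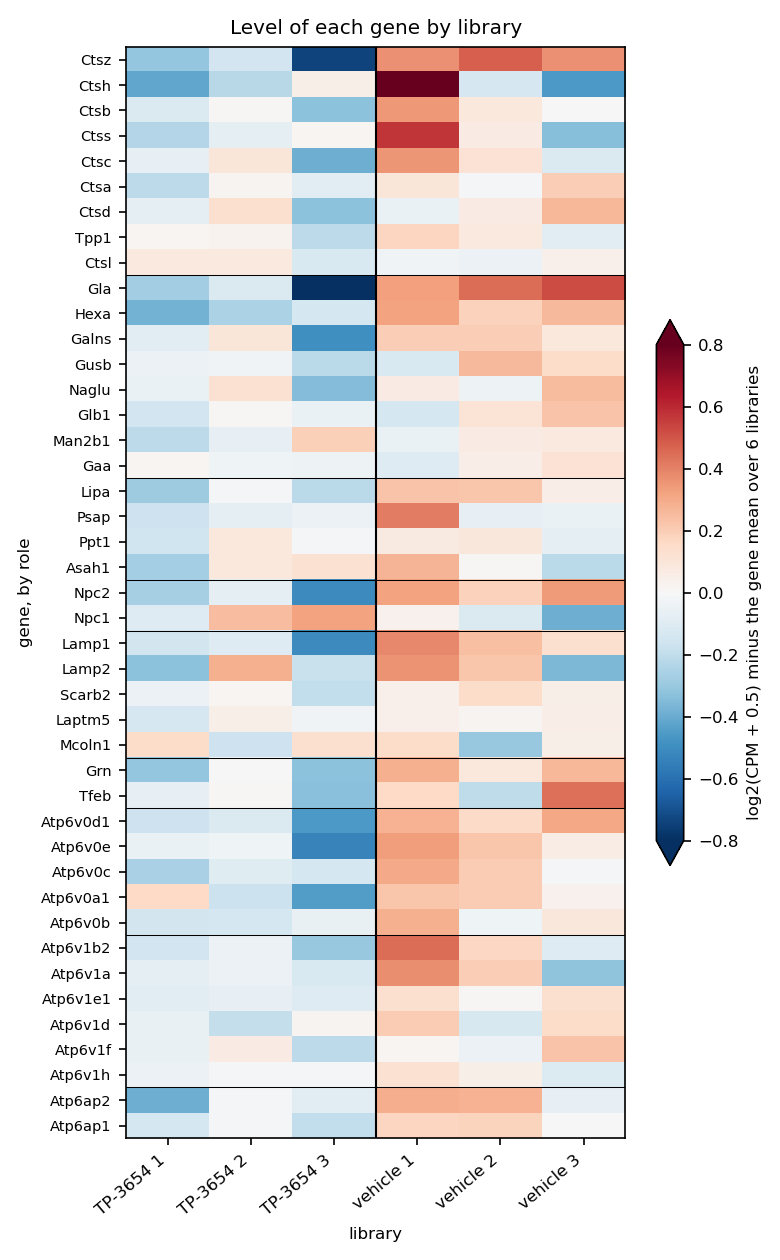
Level of each of the 43 genes in each library, as log2(CPM + 0.5) minus that gene's mean over the 6 libraries, with genes grouped by role and colours limited to 0.8 in either direction. Most genes are above their mean in vehicle replicate 1, and in 22 of the 43 the lowest library is TP-3654 replicate 3.

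Single libraries held many of the extremes. Vehicle replicate 1 was the highest library for 23 of the 43 genes (53.5%), against 16.6% of all genes tested. TP-3654 replicate 3 was the lowest for 22 of the 43 (51.2%), against 32.3% of all genes tested. The sum of the granulocyte-monocyte progenitor markers was also highest in vehicle replicate 1 (18370 CPM) and lowest in TP-3654 replicate 3 (5026 CPM). The 11 mast cell and basophil markers, 10 of them in the table, summed to 121 CPM in TP-3654 replicate 3, 341 and 488 CPM in the other TP-3654 libraries and 434 to 519 CPM in vehicle libraries. The part of these cells in the extremes was not tested. Without vehicle replicate 1, 36 of the 43 log2 fold changes stayed below 0, and the median was -0.18. In that fit 8 genes were lower at an unadjusted p under 0.05 by edgeR, against 4.99% of all genes tested. Npc1 was then higher at that p, with a log2 fold change of 0.42. Without TP-3654 replicate 3, 40 were below 0, the median was -0.18, and 12 were lower at that p, against 5.29% of all genes tested.

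The pump genes and the other lysosomal genes were set side by side by their sums. The 13 pump genes summed to 1059, 1118 and 1011 CPM in TP-3654 libraries and 1394, 1275 and 1192 CPM in vehicle libraries, so that the TP-3654 mean was 82.6% of the vehicle mean. The 21 hydrolase genes summed to 2792, 3063 and 2745 CPM in TP-3654 libraries and 3474, 3318 and 3335 CPM in vehicle libraries, or 84.9%. For both sums the groups did not overlap. The ratio of pump to hydrolase sums was 0.379, 0.365 and 0.368 in TP-3654 libraries and 0.401, 0.384 and 0.358 in vehicle libraries, which overlapped. On the scale of CPM per kilobase the order turned, with the pump sum in TP-3654 libraries at 83.4% of vehicle and the hydrolase sum at 82.5%. The ratio on that scale was 0.597, 0.577 and 0.598 in TP-3654 libraries and 0.606, 0.578 and 0.567 in vehicle libraries, again with overlap. Per gene, the median log2 fold change was -0.24 for the pump, -0.20 for the hydrolases and -0.16 for the 9 membrane and other genes. The last was -0.36 without TP-3654 replicate 2, when it was the most negative of the 3, and -0.10 without TP-3654 replicate 3. At an unadjusted p under 0.05 by edgeR, 5 of 13, 4 of 21 and 3 of 9 genes were lower, against 6.84% of all genes tested. Of the DESeq2 calls, 1 was a pump gene, 3 were hydrolases and 2 were among the other genes, against 1.92% of all genes called lower by DESeq2. The 9 membrane and other genes summed to 1800, 2064 and 1802 CPM with TP-3654 and 2279, 2146 and 2165 CPM with vehicle, of which Laptm5 alone held 47.7% in vehicle libraries. No p is given for these sums, since the genes were chosen with results known.

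**Figure D4:**
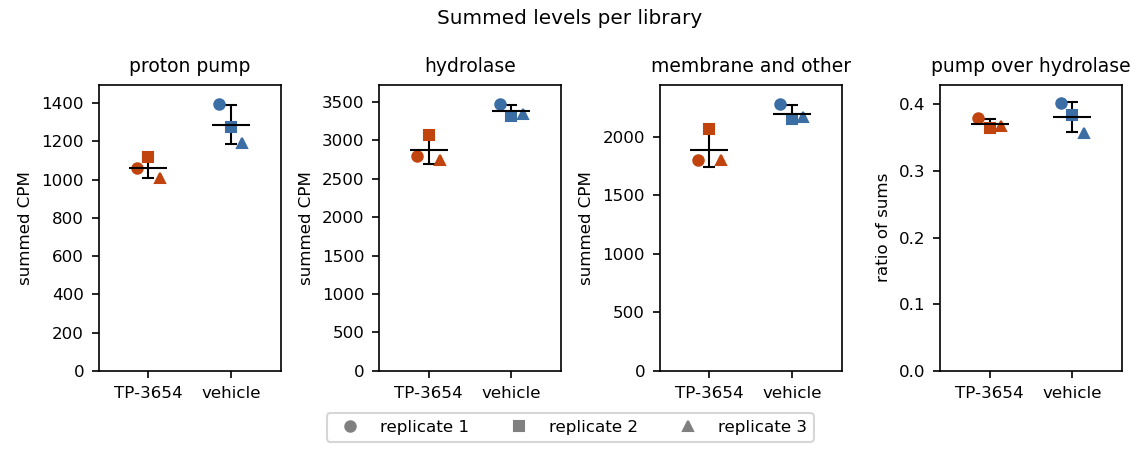
Summed TMM-scaled CPM per library of the 13 pump, 21 hydrolase and 9 membrane and other genes, and the ratio of the pump sum to the hydrolase sum. Points are libraries and bars the mean ± SD of 3. The sums lie lower in TP-3654 libraries, while the ratios of 0.365 to 0.379 lie within the vehicle range of 0.358 to 0.401.

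Among the 13 pump genes of the list, levels per kilobase of principal transcript differed widely in both groups. Atp6v0c and Atp6v1f were highest. Atp6v0c stood at 120 ± 6.88 CPM per kilobase in TP-3654 libraries and 151 ± 16.3 CPM per kilobase in vehicle libraries (SD, n = 3 each). Atp6v1f stood at 122 ± 11.6 CPM per kilobase in TP-3654 libraries and 134 ± 13.5 CPM per kilobase in vehicle libraries, so that the mean ± SD of the pair overlapped in each group. Atp6v0a1 was lowest, at 8.60 ± 1.83 CPM per kilobase in TP-3654 libraries and 10.5 ± 0.738 CPM per kilobase in vehicle libraries. Its nearest neighbour was Atp6v1d, at 11.6 ± 0.860 CPM per kilobase in TP-3654 libraries and 13.0 ± 1.55 CPM per kilobase in vehicle libraries (SD, n = 3 each). The order depends on the transcript lengths of the annotation, and reads of Atp6v1f are uncertain, with 18.4% of its 31-base words found at other loci.

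Related genes outside the 43 were read from 5 lists. At an unadjusted p under 0.05 by edgeR, their counts stand against 6.84% lower and 10.2% higher of all genes tested. Their DESeq2 calls stand against 1.92% called lower and 4.92% called in either direction, of all genes with a DESeq2 adjusted p. The 13 tested genes for other pump subunits and assembly factors had a median log2 fold change of 0.03. In that list 1 gene was lower at an unadjusted p under 0.05 by edgeR, 0 were higher, and DESeq2 called 0. That gene was Atp6v1c1, subunit C of V1, at 49.1 ± 1.84 CPM in TP-3654 libraries and 59.1 ± 3.37 CPM in vehicle libraries (SD, n = 3 each). The other a subunits, Atp6v0a2 (log2 fold change 0.06, SE 0.10) and Tcirg1 (-0.21, SE 0.14), which were chosen after their values were seen, overlapped between groups. Atp6v0a2 averaged 102 CPM in TP-3654 libraries and 97.6 CPM in vehicle libraries, and Tcirg1 175 and 201 CPM. Atp6v0a1 averaged 34.5 and 42.1 CPM in the same order. The 35 tested genes for other lysosomal hydrolases and cofactors had a median of -0.14, with 9 lower and 6 higher at that p, and DESeq2 called 3 lower and 1 higher. Among them Ctsw, a cathepsin of cytotoxic lymphocytes, stood higher (log2 fold change 1.04, SE 0.21). Gm2a, the activator protein that hexosaminidase A needs (-0.63, SE 0.17), Ctsg, a serine protease of myeloid granules (-1.31, SE 0.33), and Nagpa, which uncovers the mannose 6-phosphate tag of lysosomal enzymes (-0.58, SE 0.17), stood lower.

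The 27 tested genes for other lysosomal membrane proteins had a median log2 fold change of 0.00, with 1 lower (3.7%, against 6.84%) and 6 higher of the 27 (against 10.2%) at an unadjusted p under 0.05 by edgeR. Both relatives of the channel Mcoln1 stood higher. Mcoln2 had 25.2 ± 3.57 CPM in TP-3654 libraries and 16.5 ± 4.31 CPM in vehicle libraries (log2 fold change 0.61, SE 0.21), and the scarce Mcoln3 had 1.14 ± 0.343 and 0.348 ± 0.142 CPM in the same order (SD, n = 3 each; log2 fold change 1.70, SE 0.47). Cd63, a tetraspanin of late endosomes, stood higher (0.73, SE 0.22) and Tmem192 lower (-0.58, SE 0.16). The 21 tested genes for nutrient sensing at the lysosome and for TFEB relatives had a median of 0.02, with 4 lower and 2 higher. The Ragulator genes Lamtor4 (-0.42, SE 0.12) and Lamtor2 (-0.35, SE 0.11) and the TFEB relative Tfec (-0.61, SE 0.18) were lower, and Rragb, a GTPase that recruits mTORC1, was higher (0.59, SE 0.17). The 25 tested genes for delivery of enzymes to the lysosome had a median of -0.06, with 1 lower, the adaptor subunit gene Ap3s1 (-1.04, SE 0.19), and 1 higher, the tethering gene Vps39 (0.28, SE 0.11). By DESeq2, 1 gene was called lower and 1 higher in the membrane list and in the nutrient sensing list, and 1 lower in the delivery list. Of all genes with a DESeq2 adjusted p, 1.92% were called lower and 4.92% in either direction. None of the genes in these 5 lists had an edgeR adjusted p under 0.05.

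**Figure D5:**
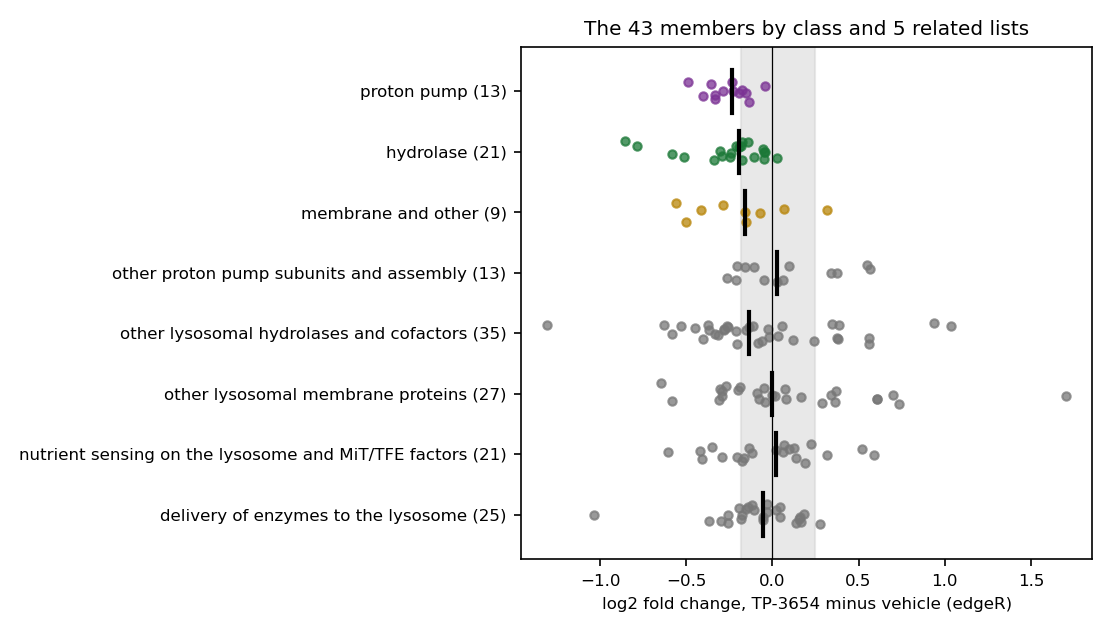
Log2 fold changes, TP-3654 minus vehicle, of the 43 genes in their 3 classes (coloured) and of 5 lists of related genes (grey), with the number tested in brackets. Vertical bars mark medians and the shaded band the middle 50% of all genes tested. The medians of the 3 classes are -0.24, -0.20 and -0.16, and those of the 5 lists run from -0.14 to 0.03.

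The authors' deposited table of their own comparison lists all 43 genes, 40 of them with a log2 fold change below 0. Of these, 8 had an adjusted p under 0.05 in the authors' deposited table, all lower. Among all its genes with an adjusted p, the authors' deposited table has 5.32% under 0.05, and 2.48% that are also lower. The 8 are Npc2, Ctsz, Lamp1, Hexa, Atp6v0d1, Atp6v0c, Atp6v0e and Gla, with deposited adjusted p from 7.24e-05 for Npc2 to 0.0478 for Gla in the authors' deposited table. For Hexa the authors' deposited table gives a log2 fold change of -0.62, and for Atp6v0c one of -0.44. The authors' deposited table gives mean counts and fold changes that DESeq2 on the deposited counts does not return, so the values it was made from may differ from the count table used here. As it concerns the same study groups, its calls are no independent evidence.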

How the data were processed

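RNA-seq of 6 LSK libraries was analysed from 2 deposited tables. The authors deposited whole-number read counts per Entrez gene, not normalized. Their second table holds, per the file headers, a signal (the mean normalized count deposited for each gene), a deposited log2 fold change with its standard error, a deposited score (the Wald statistic) and deposited p-values, raw and adjusted. The submitters' processing notes name HISAT2 2.1.0, SAMtools 1.9.0, DESeq2 and the builds mm10 and GRCm38. How reads were counted, on which annotation and with which strand setting is not given in the sources used here, so reads of overlapping and antisense genes cannot be told apart.

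Symbols came from the deposited comparison, otherwise from RefSeq for GRCm38.p6, which also gave coordinates and promoters; 15839 of 15845 genes received one. Counts were tested with edgeR 4.0.16 (R 4.3.3): TMM factors, filterByExpr (2696 genes removed, 0.0674% of counts), robust quasi-likelihood fit without covariates, and Benjamini-Hochberg adjustment over all 13149 genes. SEs were derived as |log2 fold change| divided by √F. These SEs include the variation between libraries, while the floor of 3 counts covers counting error only. DESeq2 1.42.0, limma-voom 3.58.1, other scalings, no filter, a replicate block and leaving out each library were the alternatives. On simulated counts for this comparison, 65 of 100 genes changed 2-fold and 96 of 100 changed 4-fold were called, and 15 of 12949 unchanged genes. CPM per kilobase divides by the longest principal transcript of GENCODE M21, whose transcripts also gave the 31-base words shared with other loci.

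The 43 genes and the lists were chosen with earlier results of these data known. Genes with an unadjusted p under 0.05 or groups apart were named with values in each library. In each related list, up to 4 genes with the smallest p under 0.05 were named.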

Additional observations from a re-analysis of the deposited data

How the results depend on the processing

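The number of genes called over all genes was 0 with edgeR, 0 with limma-voom, with RLE factors and with library totals only, 657 with DESeq2, 5 without the low-count filter and 3 with a replicate block. Leaving out 1 library gave 0 to 31 calls: 7, 18 and 31 without TP-3654 replicates 1, 2 and 3, and 0 without any vehicle library. Of the 43 members 6 were called by DESeq2 and 0 under each other alternative. Members with an unadjusted p under 0.05 numbered 9 to 16 over all alternatives, against 12. Of all genes, the share lower at that p ran from 4.79% (library totals only) to 8.47% (DESeq2), against 6.84%. The median log2 fold change with 1 library left out ran from -0.35 to -0.21 for the pump genes, from -0.26 to -0.16 for the hydrolases and from -0.36 (without TP-3654 replicate 2) to -0.10 (without TP-3654 replicate 3) for the membrane and other genes, against -0.16 with all libraries. Of 516 pairs of a member and an alternative, 12 changed sign, all with a library left out and none of them called. The lowest and highest log2 fold changes were then -0.88 and 0.11 for Ctsh, -0.44 and 0.029 for Ctss, -0.16 and 0.088 for Asah1, -0.18 and 0.036 for Man2b1, -0.11 and 0.0104 for Ppt1, -0.11 and 0.0070 for Atp6v1h, -0.11 and 0.0036 for Gaa, -0.0108 and 0.079 for Ctsl and -0.069 and 0.16 for Mcoln1. The causes were not tested. The labels state no pairing by replicate number, and none was assumed in the main fit. Deviations of same-numbered libraries correlated at -0.0117, -0.015 and 0.031, and 2 of 6 libraries correlated best with their own number. With 3 libraries a group, these values cannot settle whether samples were paired. With the block, 11 members were lower at an unadjusted p under 0.05 by edgeR, against 6.15% of all genes tested. SEs of the members ran from 0.10 to 0.45 on the log2 scale, and the power to call a difference of the members' median size was not tested.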

Other observations

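For the 43 genes the authors' deposited table gives mean normalized counts at 53.8% (Mcoln1) to 112% (Npc1) of the mean deposited count, with a median of 82.9%. Its log2 fold changes differ from those that DESeq2 gave on the deposited counts by at most 0.22 for a member, Ctsh, and by a median of 0.077 over all shared genes.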
